A study of Rattus norvegicus with 6 samples.

Results

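The genes described here encode the proteins with which nerve terminals fill synaptic vesicles, dock them, fuse them with the membrane and take them back. They were chosen by name from a list of 33 gene symbols, and every row of the deposited expression table that carried one of these symbols was taken. The table held 22062 genes, and 31 of the 33 symbols were found in it. Amph and Sv2b had no row under those names in the table used here. All 31 passed the filter on low counts and were among the 12441 genes tested.

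Hippocampal RNA of Sprague Dawley rats was sequenced after single prolonged stress (SPS), a sequence of stressors used in rodents as a model of post-traumatic stress, and compared with that of Control rats. The SPS rats were held immobile in a plastic container for 2 hours, swam for 20 minutes in water 40 cm deep at 24 °C, rested for 15 minutes and were anaesthetised until unconscious. Control rats were left undisturbed in their home cages. Each group had 3 libraries, and since the labels do not call them separate animals, the p-values cover the spread among these libraries and no more. The labels give neither the sex and age of the rats nor the time between the stress and the taking of the tissue.

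A synaptic vesicle is loaded with transmitter by a transporter that draws on a proton gradient, and is tethered near the active zone by synapsins and by scaffold proteins such as Bassoon and Piccolo. Fusion is driven by the SNARE proteins, in which VAMP on the vesicle pairs with syntaxin and SNAP-25 on the plasma membrane. Synaptotagmins sense calcium, complexins hold the assembled SNAREs ready, and after fusion the SNAREs are taken apart and the membrane is retrieved by clathrin and dynamin. Most excitatory terminals of the hippocampus use the vesicular glutamate transporter VGLUT1, encoded by Slc17a7.

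The upstream sequences of 3 genes are shown, picked by their values in the results below, and no result rests on the sequences. Stx1a had the smallest p between SPS and Control, and Bsn and Pclo varied most between libraries among the genes with reads in all of them. The sequences are the 250 bases before the annotated start, from RefSeq on GRCr8, and each is given 5′ to 3′ on the strand of the gene. Capitals mark GGGCGG, the GC box bound by Sp1-family factors, also where it lies on the opposite strand.
Stx1a promoter, chr12:27306472-27306721, minus strand: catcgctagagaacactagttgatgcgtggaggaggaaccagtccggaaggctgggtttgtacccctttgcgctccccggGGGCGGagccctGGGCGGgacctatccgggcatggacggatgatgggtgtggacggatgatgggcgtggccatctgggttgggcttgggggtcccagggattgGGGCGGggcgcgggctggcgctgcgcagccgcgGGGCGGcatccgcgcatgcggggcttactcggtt
Bsn promoter, chr8:117754413-117754662, minus strand: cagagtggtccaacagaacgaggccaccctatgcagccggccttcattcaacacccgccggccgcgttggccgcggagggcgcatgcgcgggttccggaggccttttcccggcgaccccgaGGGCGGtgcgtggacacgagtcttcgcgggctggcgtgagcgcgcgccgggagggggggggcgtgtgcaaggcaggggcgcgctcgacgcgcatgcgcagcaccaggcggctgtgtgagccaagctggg
Pclo promoter, chr4:21005112-21005361, minus strand: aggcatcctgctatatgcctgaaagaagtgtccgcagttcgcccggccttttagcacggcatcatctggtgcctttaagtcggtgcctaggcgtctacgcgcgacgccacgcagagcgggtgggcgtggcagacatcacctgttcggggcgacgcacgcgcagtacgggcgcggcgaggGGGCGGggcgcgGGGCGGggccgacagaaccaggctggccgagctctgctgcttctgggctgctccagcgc
The Stx1a sequence held 4 matches to GGGCGG, that of Pclo held 2 and that of Bsn held 1. A promoter was found for 25 of the 31 genes. GGGCGG, searched on both strands, was present in 18 of these 25, or 72%, and in 30.5% of all 33469 promoters of the same length. The 25 promoters were also rich in G and C, with a median of 66% against 51.2% over all promoters, and the motif is itself made of these letters. TATAAA was in 0 of the 25 and in 12.9% of all promoters, TGACGTCA was in those of Syn1 and Vamp1 and in 1.59% of all, and GCGNGGGCG, which overlaps GGGCGG in part of its letters, was in 7 of the 25 and in 4.29% of all. These motifs were chosen with the promoters in view, and a match describes the letters only.

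The libraries differed in depth and in markers of other cells. Depth was 11148531, 4081184 and 5768628 reads in SPS replicates 1 to 3, against 11838770, 5321132 and 4786503 in Control replicates 1 to 3. Markers of hippocampal pyramidal cells and dentate gyrus granule cells had reads in all 6 libraries. Of these lists Spink8 and Tdo2 were at 0 in 5 libraries, and Fibcd1 was at 0 in SPS replicate 2. The dentate list summed to 341, 204 and 786 CPM (normalised reads per 1e+06 reads) in SPS, against 293, 193 and 768 in Control. Its sum was thus highest in replicate 3 of both groups. In Control replicate 2 Calb1 made up 126 CPM of it, while Prox1 had 5.68 CPM. Prox1 had 66.4 to 437 CPM in the other libraries. Markers of cortex and subiculum summed to 315, 277 and 411 CPM in SPS, against 323, 454 and 407 in Control. SPS replicate 2 stood apart as well. In it 6 tested choroid plexus markers of 10 listed, of the epithelium that makes cerebrospinal fluid, summed to 32514 CPM, against 36.0 and 40.6 in the other SPS libraries and 23.9 to 129.6 in Control, with Otx2 of that list at 0 in all 6. Markers of the meninges summed to 3585 CPM in SPS replicate 2 and 5557 in Control replicate 2, against 229 to 447 in the other SPS libraries and 218 to 292 in the other Control libraries. Ptgds alone gave 2259 CPM of the sum in SPS replicate 2 and 4719 in Control replicate 2, and Igf2 gave 1111 and 469. Of 12 oligodendrocyte markers the sum was 30953 CPM in SPS replicate 2, against 15917 and 13356 in the other SPS libraries and 8774 to 13304 in Control. The oligodendrocyte sums thus moved with the groups as well: all 3 SPS sums exceeded every Control sum, and 11 of the 12 markers were higher in SPS in all 3 pairs, or 91.7%, against 11.6% of all genes. None of the 12 had an adjusted p under 0.05, while 4 had an unadjusted p under 0.05 in edgeR and 9 had one with the replicate block. Sums of the 5 tested ependymal markers also separated the groups, at 56.3, 140.1 and 36.3 CPM in SPS. They were 18.6, 13.5 and 25.7 CPM in Control. Of these 5 markers, 3 were higher in SPS in all 3 pairs, or 60%. None had an adjusted p under 0.05, while 3 had an unadjusted p under 0.05 in edgeR. In SPS replicate 2, 90 genes were listed at 0 that had at least 50 reads in each of the other 5 libraries, while Control replicate 2 had 1 such gene and the others had 0. A value listed at 0 in SPS replicate 2 can therefore be a failed estimate.

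No vesicle gene passed the test between SPS and Control. At an adjusted p under 0.05, 0 of the 31 were called, and the share called over all genes tested was 0%. At an unadjusted p under 0.05 again 0 of the 31 passed, where 0.338% of all genes did. The smallest p of a vesicle gene was 0.0690, for Stx1a, with a Benjamini-Hochberg adjusted p of 1.00 in the quasi-likelihood test of edgeR, and the adjusted p of the other 30 was also 1.00. With replicate number as a block, 0 of the 31 had an adjusted p under 0.05 (0% of all genes) and 0 an unadjusted p under 0.05 (1.38% of all genes), and the smallest was 0.0910. The fitted difference was negative in 23 of the 31 and positive in 8, where 52.1% of all genes were negative, and its median was -0.15 on the log2 scale, against -0.02 over all genes. A difference in tissue RNA of this kind cannot tell fewer cells of a type from less RNA per cell. The 95% intervals reached 0.75 to 3.32 log2 units to either side of the estimate, with a median of 1.15.

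**Figure D1:**
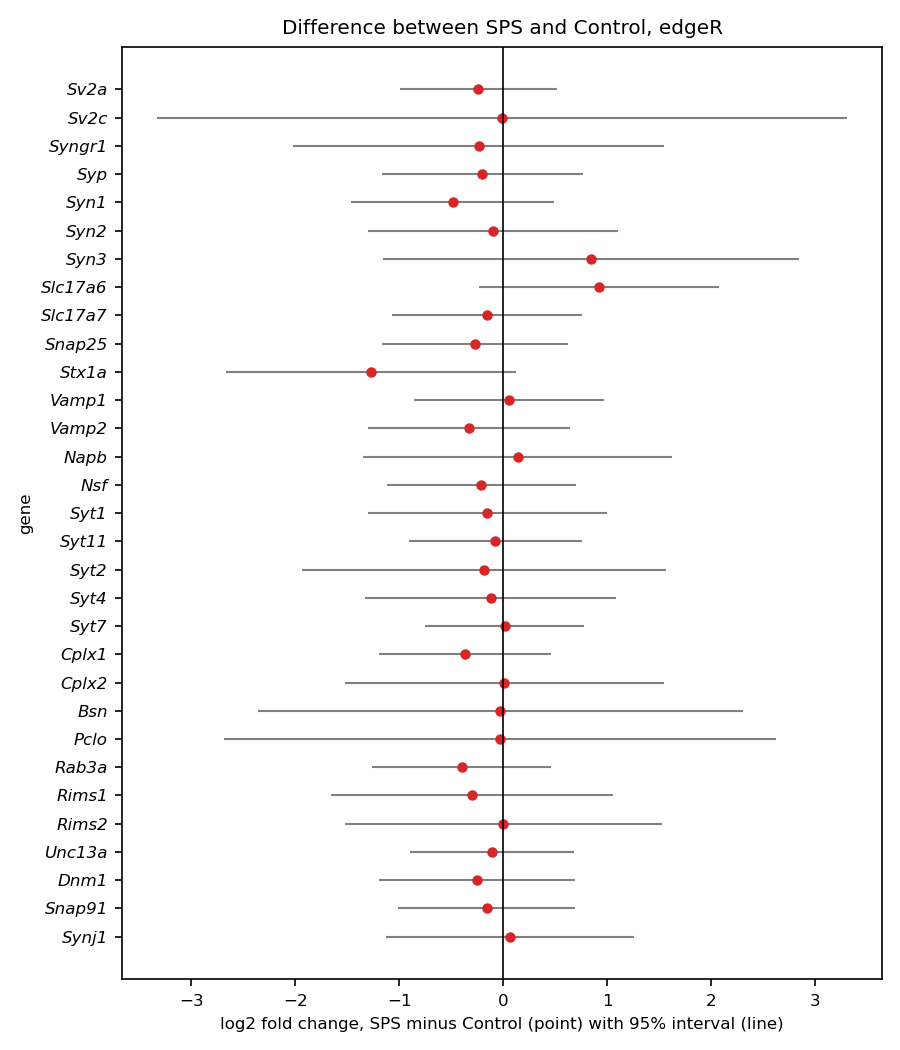
Log2 fold change (SPS minus Control, x axis) of the 31 vesicle genes (y axis, grouped by role), with the point for the edgeR estimate and the line for its 95% interval. All 31 lines cross 0, the points of Stx1a (-1.27) and Slc17a6 (0.92) lie farthest to either side, and the line of Sv2c is the widest.

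By abundance the 31 genes spanned a wide range. In FPKM, the deposited unit that scales fragments to transcript length and library size and so allows genes to be set side by side, 15 of the 31 averaged over 100 across the 6 libraries and 4 averaged under 10. Snap25 led at 960 FPKM, followed by Slc17a7 at 649, Vamp2 at 535, Rab3a at 439 and Syp at 436. At the low end were Slc17a6 at 4.59, Syn3 at 4.17, Syt2 at 3.57 and Sv2c at 1.74 FPKM. Reads of the 31 genes together made up 1.77%, 0.940% and 2.18% of the SPS libraries, against 1.68%, 1.58% and 2.27% of the Control libraries. SPS replicate 2 was thus lowest, and the 2 groups overlapped.

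**Figure D2:**
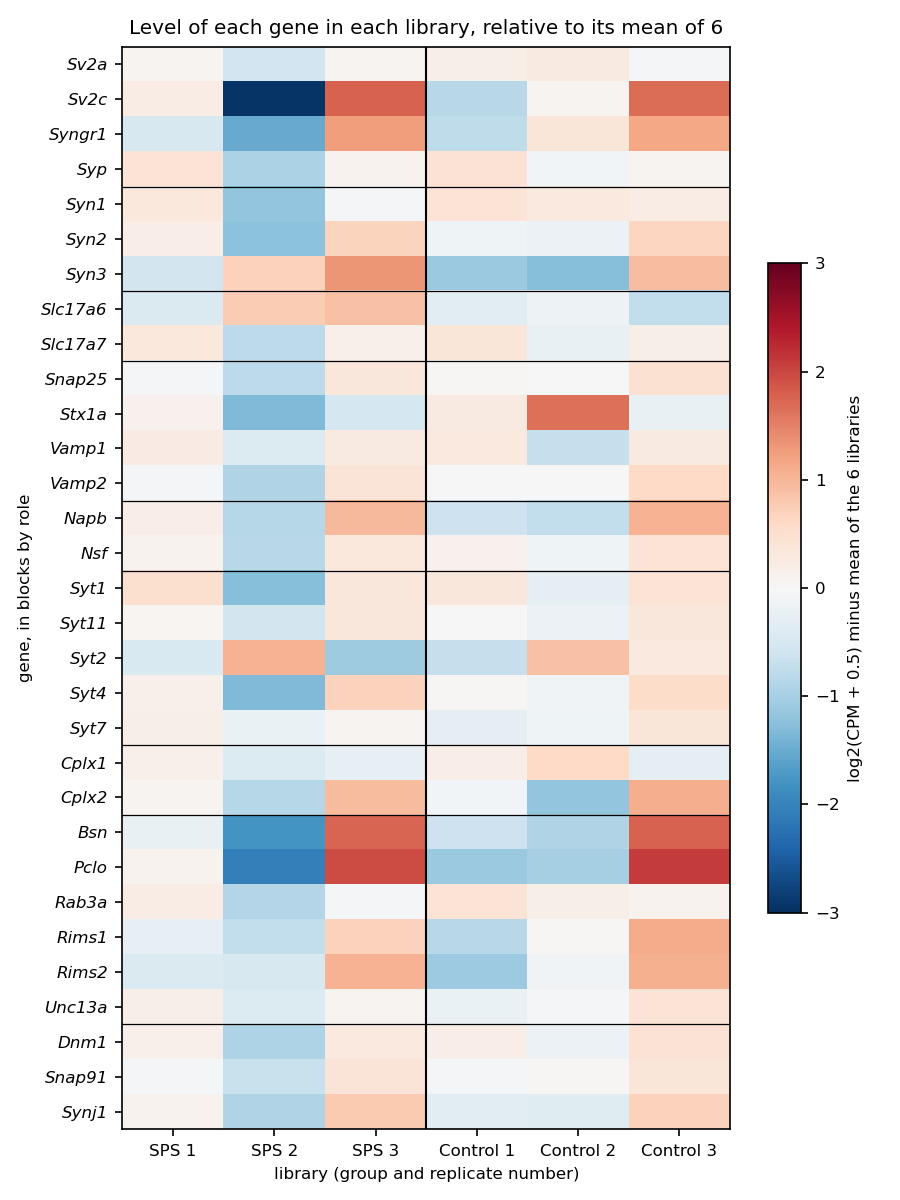
Level of each vesicle gene (rows, grouped by role) in each library (columns, SPS left of Control), as log2(CPM + 0.5) minus the gene's mean over the 6 libraries, with colours limited to 3 log2 units. The column of SPS replicate 2 is low for most genes, with Sv2c listed at 0 there, and for 18 genes SPS replicate 3 and Control replicate 3 are the highest columns.

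Among proteins of the vesicle membrane, Syp (synaptophysin, the most used vesicle marker) had 759, 293 and 606 CPM in SPS, against 764, 539 and 603 CPM in Control. SPS replicate 1 lay just under the highest Control library and SPS replicate 2 was the lowest of the 6. Sv2a, a vesicle glycoprotein that binds the antiepileptic levetiracetam, had 472, 299 and 468 CPM in SPS, against 501, 536 and 428 CPM in Control. Its fitted difference was -0.24 ± 0.32 on the log2 scale (SE), and only SPS replicate 2 lay below the lowest Control library. Syngr1 (synaptogyrin 1) had 50.7, 24.8 and 172 CPM in SPS, against 41.7, 91.4 and 159.5 CPM in Control, with the highest value in replicate 3 of both groups. Its locus overlaps that of Rpl3, a ribosomal protein gene, and its reads may be shared with it. Sv2c, a paralog of Sv2a with a narrow distribution in the brain, had 3.99 and 12.6 CPM in SPS replicates 1 and 3 and was listed at 0 in SPS replicate 2, against 1.66, 3.55 and 11.7 CPM in Control. All 4 membrane genes were lowest in SPS replicate 2, and their fitted differences ranged from -0.24 to -0.01, where that of Sv2c (-0.01) rests on the value listed at 0 and has the widest interval of the set.

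The synapsins coat vesicles and hold them in the reserve pool. Syn1 had 818, 289 and 641 CPM in SPS, against 874, 803 and 775 CPM in Control, a mean of 583 ± 269 CPM in SPS and 817 ± 50.7 CPM in Control (SD, n = 3 each). It was lower in SPS in each same-numbered pair, with differences of -0.09, -1.47 and -0.28 log2 units for numbers 1 to 3, yet SPS replicate 1 lay above 2 of the 3 Control libraries. The fitted difference of Syn1 was -0.49 ± 0.42 and became -0.18 without SPS replicate 2. Syn3, the scarcest of the 3 synapsins, had 5.08, 12.7 and 19.8 CPM in SPS, against 3.24, 2.84 and 15.0 CPM in Control. It was the 1 vesicle gene higher in SPS in every same-numbered pair, by 0.58, 1.99 and 0.39 log2 units, where 11.6% of all genes were higher in every pair. Its groups overlapped, since Control replicate 3 exceeded SPS replicates 1 and 2, and the fitted difference was 0.84 ± 0.86. Syn2 had a fitted difference of -0.10 ± 0.52. The loci of all 3 synapsins overlap other genes in the table, among them the metalloproteinase inhibitors Timp1, Timp4 and Timp3, and the counting is not stated to use strand.

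Of the vesicular glutamate transporters, Slc17a7 had 2261, 1057 and 2015 CPM in SPS, against 2327, 1548 and 2062 CPM in Control. All 3 pairs differed downward in SPS, with differences of -0.04, -0.55 and -0.03 log2 units for numbers 1 to 3, and only SPS replicate 2 lay outside the Control range on the low side. Slc17a6, which encodes VGLUT2, the form typical of thalamic and other subcortical afferents, had 13.0, 30.3 and 33.2 CPM in SPS, against 14.2, 15.8 and 10.3 CPM in Control. SPS replicates 2 and 3 lay above every Control library, and SPS replicate 1 lay inside the Control range. Slc17a6 had the largest positive difference of the set, 0.92 ± 0.50 with an interval of -0.24 to 2.07. Among 8 tested markers of thalamus and other subcortical regions the sum was 242, 275 and 307 CPM in SPS, against 207, 239 and 326 in Control, and Gbx2 of the same list was at 0 in all 6 libraries. Adarb1 alone gave 170, 92.8 and 197 CPM of these sums in SPS and 146, 122 and 231 in Control. Of the 8, 4 differed upward and 4 downward, and none had an adjusted p under 0.05. Calb2 was the 1 marker without overlap, with 18.2, 53.2 and 15.3 CPM in SPS. It had 13.2, 2.13 and 5.72 CPM in Control, a fitted difference of 2.02 ± 0.80 (unadjusted p 0.0368 in edgeR). The part of these cells in the Slc17a6 values was not tested.

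The SNARE genes held both the most abundant vesicle gene and the one with the smallest p. Snap25 had 1522, 927 and 2014 CPM in SPS, against 1632, 1580.3 and 2184 CPM in Control, and Vamp2, the vesicle SNARE of fast release, had 1089.6, 604 and 1486 CPM in SPS, against 1144, 1129 and 1726 CPM in Control. Both were lower in SPS in all 3 pairs, with differences of -0.10, -0.77 and -0.12 log2 units for Snap25 and -0.07, -0.90 and -0.22 for Vamp2, and in both the groups overlapped. Vamp1, which predominates in motor and many hindbrain neurons, had a fitted difference of 0.05 ± 0.39. Stx1a (ENSRNOG00000029165, on the minus strand of chromosome 12 at 24682040 to 24710019 in the table, whose build is not given in the sources used here) encodes the plasma membrane syntaxin. It had 98.2, 35.4 and 62.1 CPM in SPS, against 109, 286 and 77.5 CPM in Control, a mean of 65.2 ± 31.5 CPM in SPS and 157 ± 112 CPM in Control (SD, n = 3 each). Control replicate 2 was the highest of the 6 and SPS replicate 2 the lowest, 8.06-fold apart, while SPS replicate 1 lay above Control replicate 3. The pairs differed by -0.15, -2.99 and -0.32, and that of number 2 was by far the widest. The fitted difference was -1.27 ± 0.60, with an interval of -2.66 to 0.13; it became -0.99 without SPS replicate 2, -0.52 without Control replicate 2 and -0.23 without both.

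After fusion the SNARE complex is taken apart by the ATPase NSF with its SNAP adaptors, which include the product of Napb. Nsf had 1169, 612 and 1359 CPM in SPS, against 1184, 1000.1 and 1452 CPM in Control. In all 3 pairs it lay lower in SPS, with differences of -0.02, -0.71 and -0.10 log2 units, and the groups overlapped. Napb had a fitted difference of 0.14 ± 0.64 and was 2.32-fold higher in the libraries numbered 3 than in those numbered 1, on the means over both groups.

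Among the synaptotagmins, Syt1 (the calcium sensor of fast release in forebrain neurons) had 1915, 573 and 1753 CPM in SPS, against 1741, 1142 and 1833 CPM in Control. SPS replicate 1 was the highest of the 6 libraries and SPS replicate 2 the lowest. Syt4, which carries a substitution in a calcium-binding domain, had 236, 83.8 and 341 CPM in SPS, against 215, 194 and 310.5 CPM in Control, with the highest value in SPS replicate 3 and the lowest in SPS replicate 2. Syt2, the fast sensor of hindbrain and many inhibitory terminals, had 6.80, 20.4 and 4.31 CPM in SPS, against 5.78, 18.1 and 11.9 CPM in Control. Here the libraries numbered 2 were the highest of their groups, unlike in Syt1 and Syt4. Syt7, a slow calcium sensor, was the most even of the set: its highest library was 1.56-fold above its lowest and its fitted difference was 0.01 ± 0.33. Syt11, a family member that does not bind calcium, differed by -0.08 ± 0.36.

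The complexins clamp and promote fusion at the assembled SNARE complex. Cplx2, the form enriched in excitatory forebrain neurons, had 783, 406 and 1431 CPM in SPS, against 701, 328 and 1571 CPM in Control. It was highest in replicate 3 of both groups and, unlike most of the set, lowest in Control replicate 2. Cplx1 had 519, 350.0 and 394 CPM in SPS, against 541, 709 and 382 CPM in Control, with the highest value in Control replicate 2. The fitted differences were 0.01 ± 0.66 for Cplx2 and -0.37 ± 0.36 for Cplx1.

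The active-zone genes included the pair with the widest spread between libraries. Bsn (Bassoon) had 559.5, 187 and 2191 CPM in SPS, against 425, 346 and 2224 CPM in Control, and Pclo (Piccolo) had 293, 65.1 and 1055 CPM in SPS, against 126, 138 and 1180.1 CPM in Control. Replicate 3 was far above the rest in both groups, so that the highest library exceeded the lowest 11.9-fold for Bsn and 18.1-fold for Pclo. The fitted differences between SPS and Control were -0.03 ± 1.00 and -0.03 ± 1.14, with SEs that leave several-fold changes in either direction inside their intervals. Rims2, whose product links Rab3 vesicles to calcium channels, had 41.0, 39.1 and 114 CPM in SPS, against 25.6, 51.5 and 117 CPM in Control, again with replicate 3 highest in both groups. Rab3a, the vesicle GTPase of regulated release, did not follow this order: it had 658, 303 and 549 CPM in SPS, against 750.5, 635 and 607 CPM in Control. Each of the 3 pairs had the lower value in SPS, with differences of -0.19, -1.06 and -0.14 log2 units, overlapping groups and a fitted difference of -0.40 ± 0.37. The locus of Rab3a overlaps that of Mpv17l2, and its reads may be shared with it. Rims1 differed by -0.30 ± 0.58 and Unc13a, which encodes the priming factor Munc13-1, by -0.11 ± 0.34.

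Membrane retrieval was represented by Dnm1, Snap91 and Synj1. Dnm1 (dynamin 1, the GTPase that cuts off endocytic vesicles) had 1202, 577 and 1335 CPM in SPS, against 1255, 972 and 1481 CPM in Control. The SPS library was the lower of each pair, with differences of -0.06, -0.75 and -0.15 log2 units, and the groups overlapped. Snap91, which encodes the clathrin adaptor AP180, differed by -0.16 ± 0.37, and Synj1, the phosphatase that uncoats vesicles, by 0.06 ± 0.51. All 3 genes were lowest in SPS replicate 2 and highest in a library numbered 3.

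Composition within families could be read from FPKM, which is per length. The sums hold only the vesicle genes described here. Paralogs read further below, such as Slc17a8, Rims3, Rims4, Cplx3 and other synaptotagmins, were left out, and Sv2b had no row. Slc17a7 made up 99.6%, 98.0% and 99.0% of the summed VGLUT FPKM in SPS, against 99.6%, 99.3% and 99.7% in Control. Syn1 made up 66.6%, 63.3% and 52.1% of the synapsins in SPS, against 72.7%, 71.7% and 57.4% in Control. Syn1 was thus the major synapsin in all 6 libraries, and its share was lowest in replicate 3 of each group. Syn3 stayed small, at 0.592%, 3.97% and 2.32% in SPS, against 0.386%, 0.362% and 1.60% in Control. Cplx2 made up 61.3%, 59.7% and 78.7% of the complexins in SPS, against 57.3%, 34.4% and 81.0% in Control, so that Control replicate 2 was the 1 library in which Cplx1 was the larger. Syt1 held 53.2%, 33.8% and 49.9% of the 5 synaptotagmins in SPS, against 52.1%, 46.0% and 51.6% in Control. In SPS replicate 2 Syt11, at 42.2%, exceeded Syt1, and Syt7 reached 17.9%, against 8.46% to 10.6% in the other libraries. Vamp2 held 77.2% to 84.0% of the VAMPs in SPS and 79.8% to 88.6% in Control, and Rims1 held 69.1% to 80.0% of the RIMs in SPS and 76.3% to 80.7% in Control. The SPS and Control ranges of each named share overlapped.

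**Figure D3:**
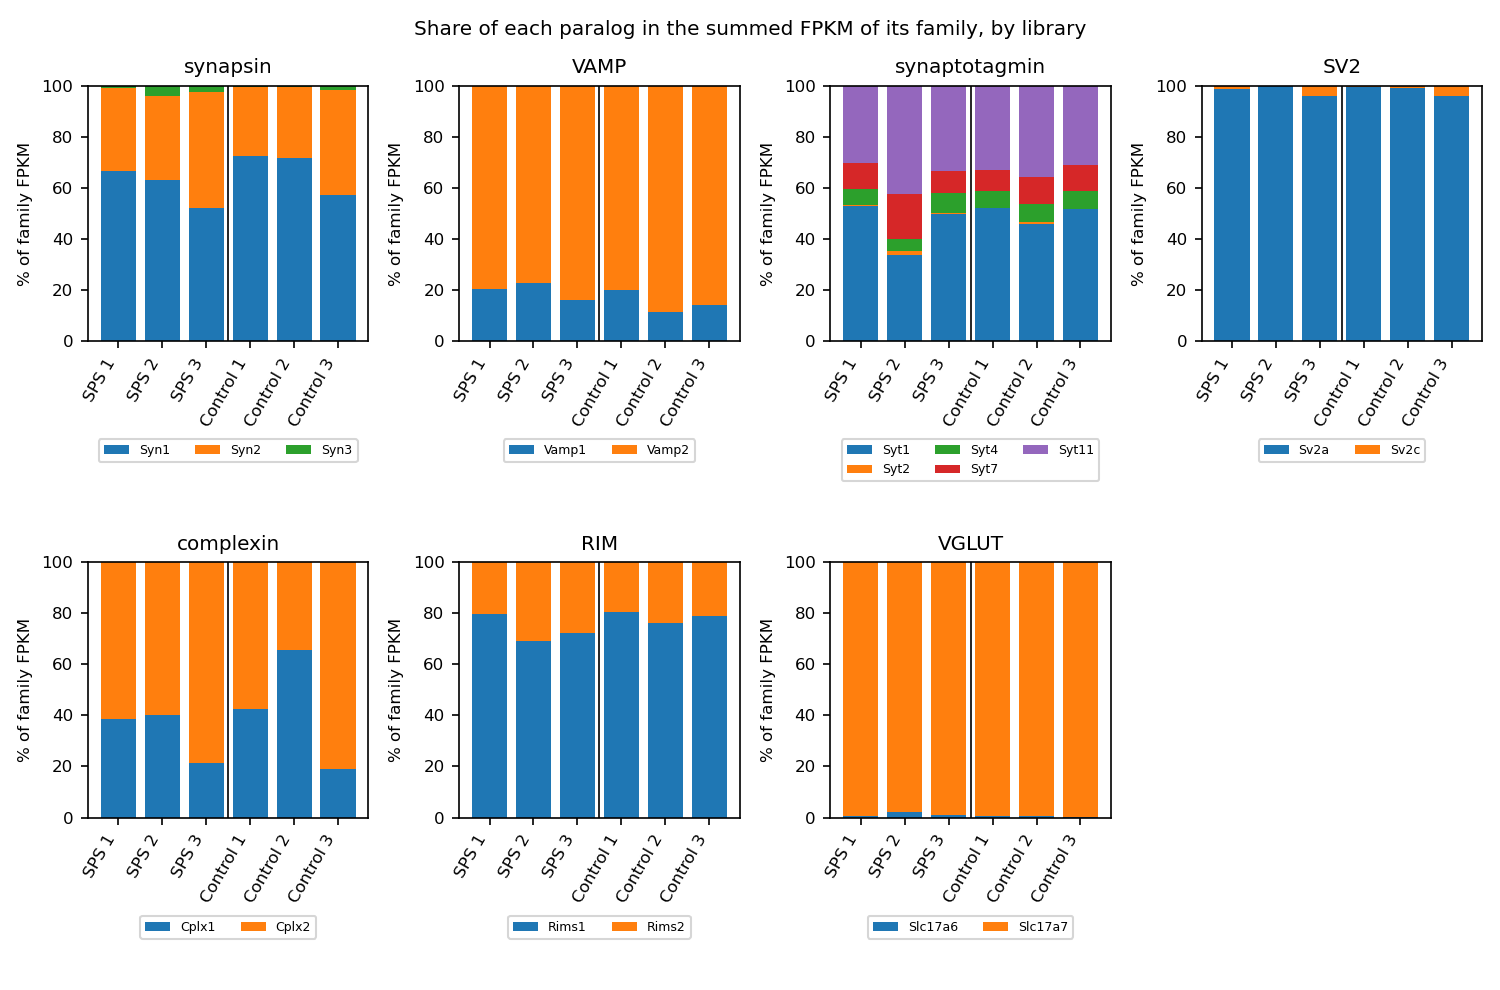
Share of each paralog (stacked bars, percent of the summed FPKM of its family, y axis) in each library (x axis, SPS left of Control) for 7 families. A family here holds only its vesicle genes described above, so that SV2 is Sv2a and Sv2c, without Sv2b, which had no row. Among these genes Vamp2, Sv2a, Rims1 and Slc17a7 led their families in all 6 libraries. Syt1 did in all but SPS replicate 2, and Cplx2 did in all but Control replicate 2.

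By same-numbered pair, SPS minus Control, the vesicle genes had a median difference of 0.14 log2 units for number 1, -0.77 for number 2 and -0.04 for number 3, against 0.01, -0.10 and 0.00 over all genes. The difference was negative in 13, 26 and 18 of the 31, and in the pair of number 2 it lay below -1 for 9 genes. In all 3 pairs SPS was lower for 8 of the 31 (Syn1, Slc17a7, Snap25, Stx1a, Vamp2, Nsf, Rab3a and Dnm1), or 25.8%, where 13.2% of all genes were lower in all 3. Of the 15 neuronal markers outside the vesicle cycle, 7 were lower in all 3 pairs, or 46.7%, 13 had a negative fitted difference and the median was -0.21. The pair of number 1 differed little in the 8 vesicle genes, between -0.19 log2 units in Rab3a and -0.02 in Nsf, and the pair of number 2 differed by -2.99 in Stx1a to -0.55 in Slc17a7. No vesicle gene had groups without overlap, 0 of 31 in either direction, where 1.54% of all genes lay wholly higher in SPS and 1.4% wholly lower.

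**Figure D4:**
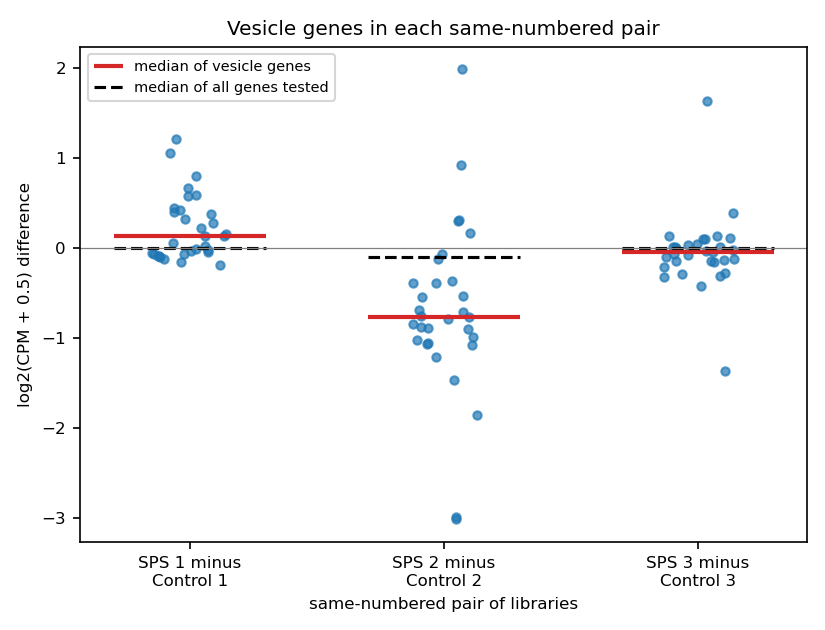
Difference of each vesicle gene between the same-numbered libraries (SPS minus Control, log2(CPM + 0.5), y axis), for numbers 1, 2 and 3 (x axis), with the median of the vesicle genes (red line) and of all genes tested (dashed line). The pair of number 2 lies lowest, with a median of -0.77, those of numbers 1 and 3 lie near 0, and the 2 lowest points are Stx1a and Sv2c, the second from the value listed at 0.

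The low values gathered in 1 library. SPS replicate 2 was the lowest of the 6 libraries for 23 of the 31 genes (Sv2c, listed at 0, among them), or 74.2%, where it was lowest for 33.2% of all genes. Relative to each gene's mean over the 6 libraries, the median vesicle gene lay at -0.85 log2 units there, against 0.11 and 0.35 in SPS replicates 1 and 3, and -0.07, -0.12 and 0.41 in Control replicates 1 to 3. Neuronal markers outside the vesicle cycle were also low in that library: 15 such genes summed to 7771, 3575 and 7436 CPM in SPS, against 7639, 5738 and 8150 in Control, and 10 of the 15 were lowest in SPS replicate 2. The choroid plexus and oligodendrocyte sums of the same library, given above, were the highest of the 6. The part of these cells in the vesicle values was not tested. Without SPS replicate 2 the median difference of the 31 genes was 0.10 in place of -0.15, and 14 of the 31 changed sign.

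High values gathered in the libraries numbered 3. In 18 of the 31 genes, or 58.1%, SPS replicate 3 and Control replicate 3 both lay above the other 4 libraries, where this held for 27% of all genes. It also held for 4 of 6 tested dentate markers (66.7%) and 6 of 10 tested interneuron markers (60%). Among the 15 neuronal markers outside the vesicle cycle it held for 3 (20%). The part of these cells in the order of the vesicle genes was not tested. The mean of the 2 libraries of a number ranged over 0.94 log2 units for the median vesicle gene, against a median absolute difference of 0.27 between SPS and Control, and the first exceeded the second in 29 of the 31 genes. This was 91.7% over all genes, near the 93.5% of the vesicle genes. The first measure is a range over 3 means of 2 libraries, and the second is a difference of 2 means of 3. Spread among libraries alone makes the first the larger as a rule, so the comparison cannot weigh number against group. The labels do not say what a number shares.

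Transcript length moved with that order. Relative length, the deposited count per FPKM divided by its median over the genes tested, was 7.19 for Bsn, 4.94 for Pclo, 2.98 for Synj1, 2.52 for Rims1 and 2.29 for Unc13a, and their levels in libraries numbered 3 minus those numbered 1 differed by 2.18, 2.53, 0.84, 1.43 and 0.26 log2 units. Unc13a thus differed least of these 5. Over all genes this difference had medians of -0.82, -0.30, 0.16, 0.71 and 1.39 in 5 classes of relative length with bounds at 0.5, 1, 2 and 4. In the same classes the 2, 9, 15, 3 and 2 vesicle genes had medians of 1.53, 0.28, 0.26, 0.84 and 2.35. The 2 genes of the shortest class, Napb and Syngr1, thus lay above the median of their class. As a description, Spearman's rho between relative length and the difference between numbers was 0.48 over 12441 genes and 0.29 over the 31, from the same 4 libraries, and genes are not independent replicates. Reads of mitochondrially encoded genes also followed the number, at 13.2%, 8.95% and 5.25% of the SPS libraries and 15.6%, 11.2% and 5.94% of the Control libraries. The part of RNA quality or library preparation in this was not tested.

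**Figure D5:**
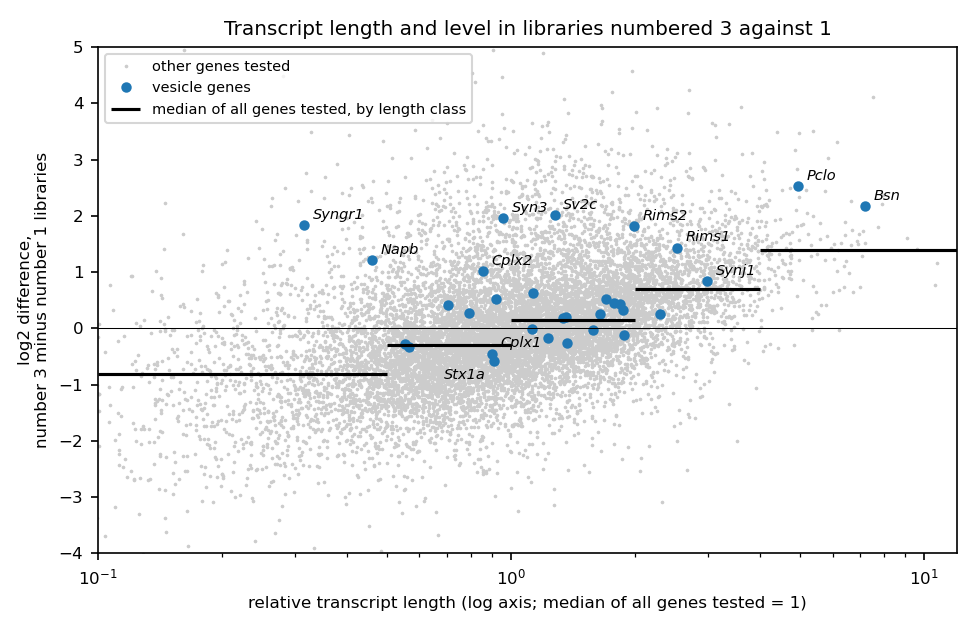
Difference between libraries numbered 3 and 1 (log2, mean over SPS and Control, y axis) against relative transcript length (x axis, log scale) for the 31 vesicle genes and for all genes tested. Bsn at 2.18 and Pclo at 2.53 log2 units lie at the upper right, with the longest transcripts of the set; the axes leave out a few other genes beyond their ends.

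Other genes of the vesicle cycle, from a list of 113 symbols, were read beside the 31. Of its 115 rows (Cask and Hspa8 had 2 each) 107 were tested. None of the 107 had an adjusted p under 0.05 and 0 had an unadjusted p under 0.05 in edgeR, 41 differed upward and 66 downward in SPS (61.7%, where 52.1% of all genes did), and the median was -0.09. In all 3 pairs 21 were lower and 7 higher in SPS, or 19.6% and 6.54%, where 13.2% and 11.6% of all genes were. With the replicate block, 2 of the 107 had an unadjusted p under 0.05 in edgeR, Fcho1 and Syngr3, or 1.87%, near the 1.38% of all genes. The 4 genes with the smallest p upward were Syngr2 at 1.10 ± 0.80, Ppfia1 at 0.58 ± 0.43, Sh3glb1 at 0.51 ± 0.44 and Eps15 at 0.35 ± 0.36 log2 units. Syngr2, a synaptogyrin found widely outside neurons, had 9.89, 50.9 and 7.36 CPM in SPS, against 9.28, 14.7 and 7.70 CPM in Control, high in SPS replicate 2 alone. Downward they were Syt5 at -0.57 ± 0.39, Atp6v1h at -0.46 ± 0.38, Rab3b at -0.72 ± 0.61 and Atp6v0c at -0.39 ± 0.33. Syt5, a vesicle synaptotagmin, had 206, 90.7 and 144 CPM in SPS, against 237, 239.9 and 176 CPM in Control, and SPS replicate 1 lay above Control replicate 3. The 6 role groups of the list had medians between -0.22 and 0.01.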

How the data were processed

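The deposited table held, per the file headers, FPKM values and estimated counts for every gene in each library. The submitters' processing notes name CASAVA 1.8, HISAT2 and the build hg19, although the identifiers are rat; for the rat build, annotation and quantifier, nothing is given in the sources used here. RNA was depleted of ribosomal RNA and sequenced with a stranded kit, per the labels' protocols. The estimated counts deposited by the authors were not whole: in each library 99.3% to 99.6% of them were whole multiples of 1 step, within 0.05 reads. They were divided by that step (0.614 to 1.79) and rounded to reads, which restored the depths; a shallower library gives less precise values.

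edgeR 4.0.16 (R 4.3.3) fitted group alone to all 6 libraries, with TMM normalisation, the tool's filter on low counts and 2-sided quasi-likelihood p-values, Benjamini-Hochberg adjusted over 12441 genes. The standard error (SE) was the absolute log2 fold change over the square root of F. Differences per library used log2(CPM + 0.5). Alternatives were a replicate block, DESeq2 1.42.0, limma 3.58.1 on log2(FPKM + 1), other scalings and filters, and leaving out libraries.

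The vesicle genes and all gene lists were chosen with earlier results of these data known. Values in every library are given, in each role, for the most abundant gene by FPKM, that with the smallest p and those whose libraries spanned over 4-fold; of the wider list, the 4 smallest p in each direction are named.

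What the replicate numbers share is not in the labels. Deviations from group means correlated at 0.43, 0.40 and 0.70 between same-numbered libraries and at -0.53 to 0.18 between others, so that same-numbered libraries were treated as pairs, from the data; the deviations of a group cancel, so these values are not independent.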

Additional observations from a re-analysis of the deposited data

How the results depend on the processing

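With a replicate block no vesicle gene was called (0 of 31, smallest adjusted p 0.967) and the median log2 fold change was -0.23; its sign changed in Synj1 (-0.003424). DESeq2 had 1 vesicle gene at an unadjusted p under 0.05 (Stx1a; 0.675% of all genes), while edgeR and limma had 0 of 31 with all libraries under each other setting run, and leaving out 1 library gave 0 to 2 (2 without SPS replicate 1 and 1 without Control replicate 3, where 1.03% and 1.77% of all genes passed). Genes whose groups did not overlap, 0 with all libraries, numbered 0 to 4 (0% to 12.9%) when 1 library was left out, where all genes gave 6.05% to 19.1%. They numbered 4 (12.9%) without both libraries numbered 1, 0 (0%) without both numbered 2 and 6 (19.4%) without both numbered 3. Over all genes 17.3%, 11.4% and 25.6% had no overlap in these 3 settings. The median difference was 0.10 without SPS replicate 2, 0.08 without Control replicate 3, -0.44 without SPS replicate 3, -0.27 without Control replicate 2 and 0.00 without both numbered 2. Genes lower in all 3 pairs numbered 9 with RLE size factors and 7 with FPKM, against 8. Single fitted differences changed sign: Rims2 with DESeq2 (-0.009099), RLE (-0.008339), no filter (-0.000962) and deposited counts (-0.00184); Pclo with limma (0.0491 with a pseudocount of 1, also without the filter, and 0.03909 with 0.1); without both numbered 1, Cplx2 (-0.05339), Synj1 (-0.08599), Rims2 (-0.1429), Napb (-0.09374) and Syt7 (-0.1847); without both numbered 2, Cplx2 (-0.0568), Pclo (0.02627), Syt1 (0.02044), Syn2 (0.1175), Syngr1 (0.1283), Syt4 (0.1167), Sv2c (0.3134), Vamp1 (-0.03268), Syt11 (0.0103), Sv2a (0.0003451), Snap91 (0.008191) and Bsn (0.03359); without both numbered 3, Syt2 (0.1929), Pclo (0.4364) and Unc13a (0.03167). The cause was not tested. With 1 library left out in turn, the fitted differences that changed sign ranged over Bsn -1.41 to 1.32, Cplx2 -0.54 to 0.74, Dnm1 -0.47 to 0.0174, Napb -0.38 to 0.93, Nsf -0.44 to 0.0391, Pclo -1.42 to 1.81, Rims1 -0.79 to 0.34, Rims2 -0.68 to 0.73, Slc17a7 -0.37 to 0.0913, Snap91 -0.44 to 0.0501, Sv2c -1.43 to 1.06, Syn2 -0.52 to 0.26, Syngr1 -1.36 to 0.29, Synj1 -0.40 to 0.47, Syp -0.50 to 0.0840, Syt1 -0.43 to 0.20, Syt11 -0.29 to 0.11, Syt2 -1.10 to 0.26, Syt4 -0.58 to 0.24, Syt7 -0.11 to 0.22, Unc13a -0.23 to 0.0781 and Vamp1 -0.21 to 0.22. Cplx1, Rab3a, Slc17a6, Snap25, Stx1a, Syn1, Syn3 and Vamp2 kept their direction under all settings run. Depth limits the scarce genes most: Sv2c, Syt2, Syn3 and Slc17a6 averaged under 10 FPKM.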
